A study of Mus musculus with 6 samples.

Results

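The interferon response genes described here are 46 listed mouse genes, made up of interferon-stimulated genes and regulators of the interferon pathway. They were taken by symbol from a table of 18614 genes measured by bulk RNA sequencing of the subventricular zone (SVZ), a neural stem cell niche beside the lateral ventricle of the mouse brain. The table held a row for 44 of the 46, and 43 of these passed the filter on low counts and were tested among 15126 genes. Mx1 and Mx2 were not analysed here, and Zbp1 had a row but too few counts to be tested. Members were listed by name with no threshold on a measured value, but with earlier results of these data known, and the choice points at 1 library, KO 2.

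Total RNA came from mice labelled Zhx2+/+ (WT, 3 libraries) or Zhx2Δ/Δ (KO, 3 libraries), the latter carrying a deletion on both copies of Zhx2, which encodes a zinc finger and homeobox transcription factor. The deleted part of the gene, the age and sex of the mice, and whether each library came from its own animal are not stated in the labels. A p-value here therefore sets the difference between the groups against the variation among these libraries, which may be technical. No treatment or infection is named in the labels. The genotype tag read ZHX2 KO for KO 1, ZHX3 KO for KO 2 and ZHX4 KO for KO 3, whereas all 3 titles name ZHX2. Zhx2 itself was at 39.8, 40.5 and 38.2 CPM (counts scaled to the library total) in WT 1, WT 2 and WT 3 and at 67.1, 57.8 and 56.3 CPM in KO 1, KO 2 and KO 3. Its level was thus not lower in any library labelled KO, and the libraries are called KO-labelled below. Where the deletion lies was not used here, so reads outside it could not be set apart, and these counts cannot decide whether the label holds. Libraries held between 17037103 and 17685856 estimated counts. The summed level of 12 choroid plexus markers was 22923, 17875 and 5363 CPM in the WT libraries and 474, 524 and 327 CPM in the KO-labelled ones, so the groups also differed in how much choroid plexus RNA they held. In bulk RNA, fewer cells of a type and less RNA per cell cannot be told apart.

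Interferons are secreted proteins that warn cells of infection. Type I interferons bind the Ifnar1 and Ifnar2 receptor and act through a complex that holds Stat2 and Irf9, while interferon gamma binds Ifngr1 and Ifngr2; both switch on a large shared set of antiviral genes. In the brain, microglia, endothelial cells, astrocytes, ependymal cells and the choroid plexus epithelium can all respond, and neural stem cells are known to keep some interferon-stimulated genes on without infection.

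The clearest pattern in these genes was a single library. KO 2 had the highest level of 26 of the 43 tested members among the 6 libraries, against 19.5% of all tested genes that were highest in KO 2, and it was the lowest for 0 members, against 18.2% of all tested genes. Some of the 26 were near ties, such as Trim25 and Ifitm2, with KO 2 at 1.01 and 1.04 times the highest other library. Irf7, Oas1a, Oas2, Oasl2, Ifi44, Isg15, Ifitm3, Gbp2 and Cxcl10 were each at least 2-fold above the median of the other 5 libraries in KO 2, which makes 9 members where 2.18% of all tested genes were. The comparison of the KO-labelled group with WT called 0 members and 0 of all 15126 genes, a share of 0%, with edgeR's quasi-likelihood test at a Benjamini-Hochberg adjusted p of 0.05. At an unadjusted p under 0.05, edgeR had 1 member higher (Oas2, against 2.68% of all tested genes) and 3 lower (Ifnar2, Gbp7 and Ifi27, against 6.39%). DESeq2 called 311 of all genes (2.06%) and 0 members. Since KO 2 is 1 library and the choice of members pointed at it, its values are a description with no test.

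**Figure D1:**
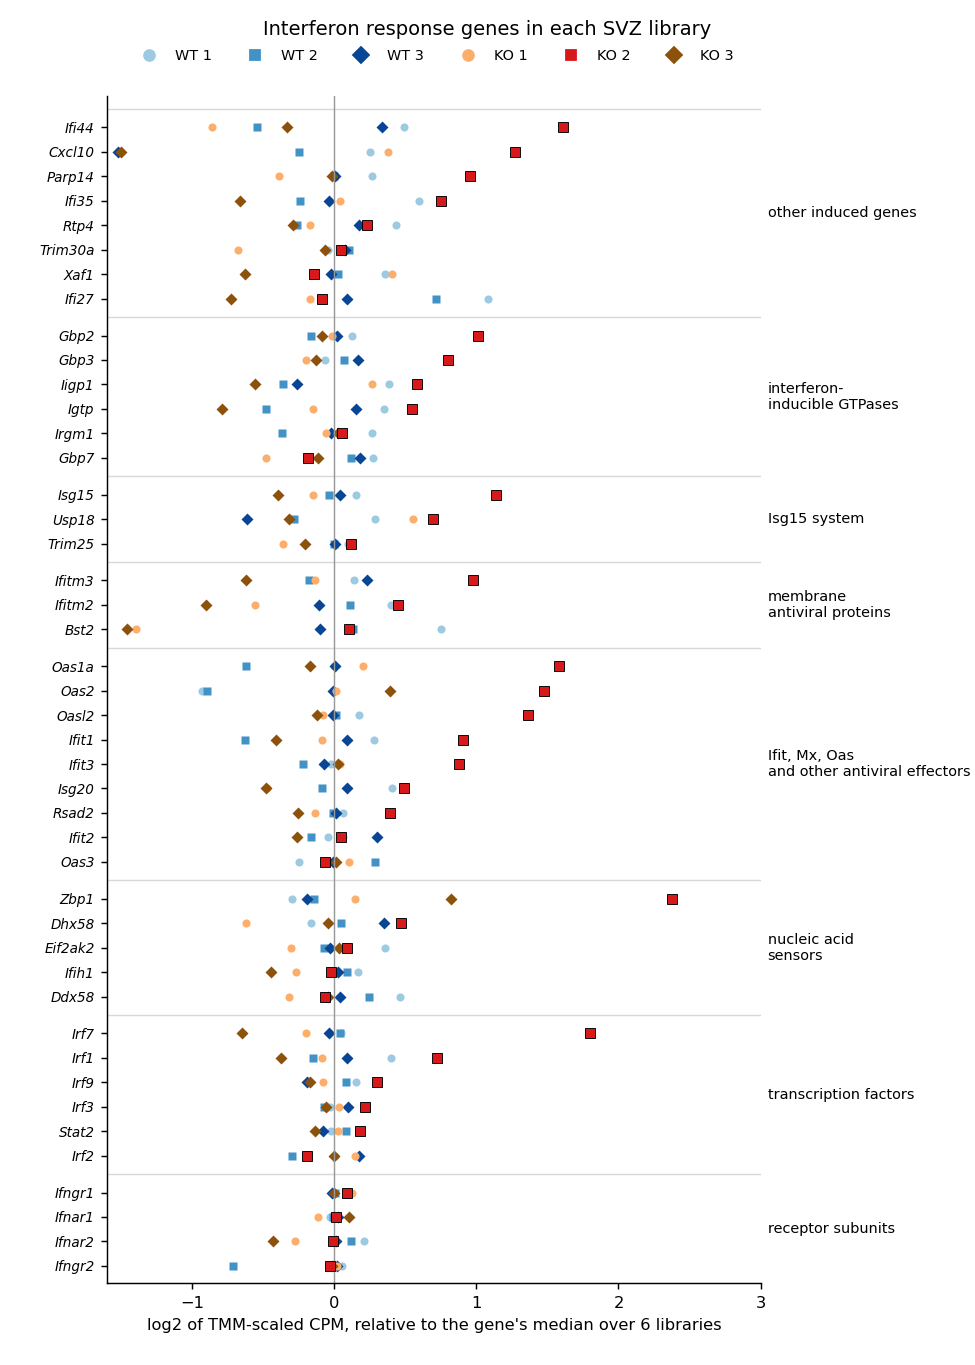
Each row is 1 member and each point 1 library, as the log2 of its scaled CPM relative to the gene's median over the 6 libraries, with members grouped by role. The red squares of KO 2 lie to the right of every other point for 26 of the 43 tested members and for Zbp1, which was not tested, while the 4 receptor subunits show no such shift.

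**Figure D2:**
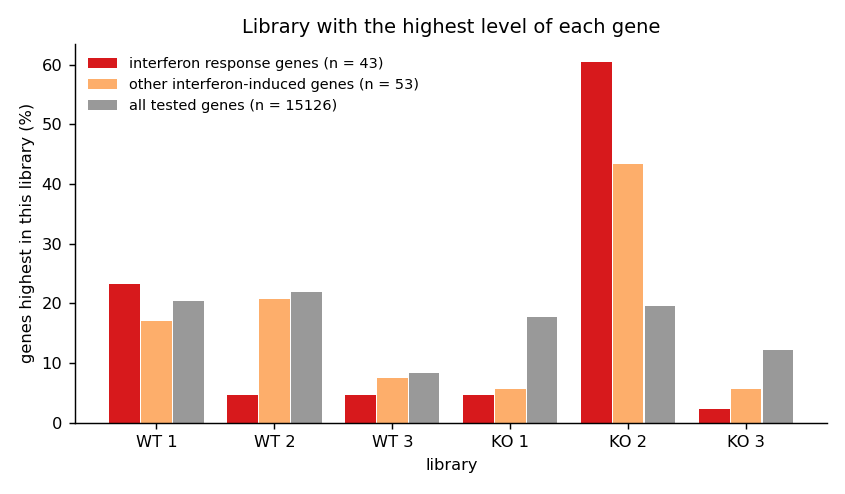
Bars give the percentage of genes that had their highest level in each of the 6 libraries, for the 43 tested members, for 53 other interferon-induced genes and for all 15126 tested genes. The members' bar is tallest in KO 2, with 26 members, followed by WT 1 with 10.

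Promoters were searched for the binding sequences of the factors that interferons activate. Since the members were listed as interferon-stimulated genes and pathway regulators, a high share among them follows from the list. It says nothing about KO 2. The core of the interferon-stimulated response element (ISRE), bound by the complex that holds Irf9 or by other interferon regulatory factors, was searched as GAAA, a gap of any 2 bases and GAAA again, on both strands of the 300 bases from 250 before to 50 after the start in RefSeq promoters of GRCm38.p6. It was found in 21 of the 36 members with a promoter in that table (58.3%), in 3.99% of all 27025 genes with one and in 3.44% of all 32851 promoters. The gamma-activated site, a binding sequence of the interferon gamma response, was searched as TTCNNNGAA and was found in 13 of the 36 members (36.1%), in 9.55% of all genes and in 8.3% of all promoters. Among 53 other interferon-induced genes with a promoter, the ISRE core was found in 22 (41.5%) and the gamma-activated site in 4 (7.55%), so the second share was not above that of all genes there. Of the 1131 promoters with an ISRE core, 24 had one that overlapped a gamma-activated site. Such a match is a string in a window and not a measured binding site.

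Of the 5 members with the largest fold of KO 2 over the median of the other libraries, Oas1a and Cxcl10 held the ISRE core in this window, Ifi44 and Irf7 did not, and Zbp1 had no entry. The promoters of Oas1a, an enzyme that makes the signal for RNA decay, and of Cxcl10, a chemokine, are therefore shown. Isg15 and Bst2 were added after their values were seen, since they hold several matches each and their fold changes between the groups had opposite signs. Each sequence is the strand of the gene in GRCm38.p6, from 5′ to 3′, and the capitals mark the ISRE core matches, which overlap one another in Oas1a, Isg15 and Bst2. Oas1a lies at chr5:120907476-120907775 on the minus strand, with matches that begin 20 and 14 bases before the start:
Oas1a: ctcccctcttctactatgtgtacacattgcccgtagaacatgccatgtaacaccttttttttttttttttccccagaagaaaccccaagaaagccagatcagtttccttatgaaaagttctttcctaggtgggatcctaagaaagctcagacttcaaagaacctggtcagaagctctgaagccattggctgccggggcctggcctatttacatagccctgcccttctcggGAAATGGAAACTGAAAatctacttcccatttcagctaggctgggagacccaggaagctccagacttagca
Cxcl10 lies at chr5:92348840-92349139 on the minus strand, with a match that begins 213 bases before the start:
Cxcl10: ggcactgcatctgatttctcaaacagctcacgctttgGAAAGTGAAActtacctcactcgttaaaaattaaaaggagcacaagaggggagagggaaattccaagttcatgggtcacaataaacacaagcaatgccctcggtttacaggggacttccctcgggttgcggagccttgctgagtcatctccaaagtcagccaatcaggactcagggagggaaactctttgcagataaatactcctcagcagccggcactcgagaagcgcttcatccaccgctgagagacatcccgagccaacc
Isg15 lies at chr4:156200769-156201068 on the minus strand, with matches that begin 78, 72 and 66 bases before the start:
Isg15: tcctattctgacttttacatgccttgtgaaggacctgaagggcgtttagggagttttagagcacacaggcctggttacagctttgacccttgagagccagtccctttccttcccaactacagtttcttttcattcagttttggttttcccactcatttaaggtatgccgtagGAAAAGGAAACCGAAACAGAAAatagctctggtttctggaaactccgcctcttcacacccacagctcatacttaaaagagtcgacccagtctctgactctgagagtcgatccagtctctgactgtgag
Bst2 lies at chr8:71537423-71537722 on the minus strand, with matches that begin 130 and 124 bases before the start, and 1 of them overlaps a gamma-activated site:
Bst2: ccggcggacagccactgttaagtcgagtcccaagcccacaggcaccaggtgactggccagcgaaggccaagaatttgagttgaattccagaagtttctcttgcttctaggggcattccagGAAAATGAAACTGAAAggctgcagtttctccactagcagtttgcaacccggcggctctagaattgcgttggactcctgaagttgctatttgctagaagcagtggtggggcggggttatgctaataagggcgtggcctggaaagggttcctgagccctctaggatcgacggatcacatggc

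The ISRE core did not separate the members that were highest in KO 2 from those that were not. Of the tested members with the core, 12 of 21 were highest in KO 2 (57.1%), and of those with a promoter but no core, 9 of 15 were (60%). Their median fold of KO 2 over the median of the other libraries was 1.32 with the core and 1.19 without it. Among tested genes on none of the lists, 21.1% of the 393 with the core were highest in KO 2, and so were 19.2% of the 11358 without it. For the gamma-activated site, 6 of 13 members with it (46.2%) and 15 of 23 without it (65.2%) were highest in KO 2.

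Levels below are scaled CPM in the order WT 1, WT 2, WT 3 and then KO 1, KO 2, KO 3, and each n is 3 libraries a group. A fold change is the log2 ratio of the KO-labelled group to WT from edgeR, given with a standard error (SE). The SE was derived from the test, as the absolute fold change over the square root of the F statistic. The fold of KO 2 is its CPM over the median of the other 5 libraries.

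The receptor subunits were not raised in KO 2. Ifnar1, a chain of the type I interferon receptor, was at 78.2, 79.1 and 81.4 CPM in WT and at 73.7, 80.5 and 85.7 CPM in the KO-labelled libraries. Its partner Ifnar2 was at 33.9, 31.9 and 29.7 CPM in WT and at 24.2, 29.1 and 21.8 CPM in the KO-labelled ones. All 3 KO-labelled libraries were below all 3 WT libraries for Ifnar2, with a fold change of -0.35 (SE 0.13), an adjusted p of 0.519 from edgeR and an exact two-sided permutation p of 0.1, the smallest that 3 against 3 can give. The ligand-binding chain of the interferon gamma receptor, Ifngr1, was at 21.1, 21.4 and 21.1 CPM in WT and 23.2, 22.7 and 21.3 CPM in the KO-labelled libraries. Ifngr2, the second chain, was at 49.9, 29.2 and 48.6 CPM in WT and 48.6, 47.1 and 47.4 CPM in the others, so that WT 2 alone was low. None of the 4 was highest in KO 2, where their fold was between 0.968 and 1.06.

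Of the 6 transcription factors of the pathway, 5 were at their highest in KO 2, to very unequal degrees. Irf7, the inducible factor that amplifies type I interferon production, was at 3.14, 3.12 and 2.96 CPM in WT and at 2.65, 10.6 and 1.94 CPM in the KO-labelled libraries. The KO 2 value was 3.58 times the median of the other libraries, with a 95% Poisson interval of 9.12 to 12.2 CPM that covers counting error only, while KO 1 and KO 3 were both below every WT library. Among 14534 genes ranked by the fold of KO 2 over the highest other library, Irf7 (chr7:141263183-141266499 in mm10) was at place 31. Its fold change between the groups was 0.72 (SE 0.64, adjusted p 0.770 from edgeR) with all libraries and -0.42 without KO 2.

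Irf1, which is induced by both kinds of interferon, was at 8.34, 5.70 and 6.73 CPM in WT and 5.95, 10.4 and 4.87 CPM in the KO-labelled libraries. Here too KO 2 was the highest and KO 3 the lowest of the 6. Irf9, the DNA-binding part of the type I complex, was at 19.2, 18.2 and 15.1 CPM in WT and 16.4, 21.3 and 15.3 CPM in the KO-labelled libraries. Its partner Stat2 was at 24.1, 26.0 and 23.2 CPM in WT and 25.0, 27.8 and 22.3 CPM in the others. Both were highest in KO 2, by folds of 1.30 and 1.15. Irf3, which is present before induction and is switched on by phosphorylation, was at 21.7, 21.1 and 23.7 CPM in WT and 22.7, 25.8 and 21.3 CPM in the KO-labelled libraries. Irf2, known as an antagonist of Irf1, was at 27.8, 22.5 and 31.2 CPM in WT and 30.6, 24.2 and 27.7 CPM in the others, and was the 1 factor of the 6 that was not highest in KO 2.

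Among the sensors of foreign nucleic acid, only Dhx58 of the 4 tested was highest in KO 2. Ddx58, also known as RIG-I, was at 10.2, 8.82 and 7.66 CPM in WT and at 5.95, 7.08 and 7.22 CPM in the KO-labelled libraries (fold change -0.40, SE 0.17). Ifih1, also known as MDA5, was at 5.58, 5.28 and 5.05 CPM in WT and at 4.12, 4.90 and 3.64 CPM in the others (fold change -0.33, SE 0.19). For both, every KO-labelled library was below every WT library, with adjusted p-values of 0.562 and 0.654 from edgeR and an exact permutation p of 0.1 each. Dhx58, a helicase that modulates the other sensors, was at 1.30, 1.5 and 1.86 CPM in WT and 0.943, 2.02 and 1.41 CPM in the KO-labelled libraries. Eif2ak2, the kinase that halts translation on double-stranded RNA, was at 18.5, 13.7 and 14.1 CPM in WT and 11.7, 15.3 and 14.8 CPM in the others. Those ranges overlapped for both genes. Zbp1, a sensor of Z-form nucleic acid, had 4, 4 and 4 estimated counts in WT and 5, 24 and 8 in the KO-labelled libraries, close to the floor of 3 counts in all but KO 2, so its fold of 5.76 in KO 2 rests on few reads.

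The Oas family held several of the largest values of KO 2. Oas1a was at 0.920, 0.6 and 0.928 CPM in WT and at 1.06, 2.76 and 0.822 CPM in the KO-labelled libraries, a fold of 3.0 for KO 2. Oas2, which like Oas1a makes oligoadenylates that activate an RNA-degrading enzyme, was at 0.704, 0.720 and 1.33 CPM in WT and at 1.35, 3.74 and 1.76 CPM in the others. Oas2 was the member with the highest fold change between the groups, 1.31 (SE 0.49, unadjusted p 0.0334, adjusted p 0.505 from edgeR), and the KO-labelled values were all above the WT values, though KO 1 was so by a narrow margin over WT 3. Oasl2, a relative in the same family, was at 6.17, 5.52 and 5.45 CPM in WT and at 5.18, 14.1 and 5.05 CPM in the others, so that KO 2 stood 2.59 times above the median while KO 1 and KO 3 were below every WT library. Oas3 did not follow its relatives and was at 1.57, 2.28 and 1.86 CPM in WT and 2.00, 1.79 and 1.88 CPM in the KO-labelled libraries. Oas1a shares sequence with close copies such as Oas1g, and the way reads were split between them is not given, so its level is uncertain.

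Ifit proteins bind viral RNA, and 2 of the 3 were highest in KO 2. Ifit3 was at 8.88, 7.74 and 8.59 CPM in WT and at 9.31, 16.6 and 9.22 CPM in the KO-labelled libraries. KO 2 was 1.88 times the median of the others, and all 3 KO-labelled libraries were above WT, although KO 1 and KO 3 exceeded WT 1 only slightly (fold change 0.48, SE 0.26, adjusted p 0.635 from edgeR). Ifit1 was at 4.17, 2.22 and 3.65 CPM in WT and at 3.24, 6.45 and 2.58 CPM in the others, and Ifit2 was at 7.58, 6.96 and 9.63 CPM in WT and 8.13, 8.06 and 6.52 CPM in the others. Ifit2 thus had no high value in KO 2. Ifit1 and Ifit3 each have a near-identical neighbour gene, which makes the split of their reads uncertain. Rsad2, the antiviral enzyme viperin, was at 2.71, 2.58 and 2.61 CPM in WT and 2.36, 3.4 and 2.17 CPM in the KO-labelled libraries. Isg20, an exonuclease that degrades RNA, was at 1.52, 1.08 and 1.22 CPM in WT and 0.825, 1.61 and 0.822 CPM in the others. In both, KO 2 was the highest library, while KO 1 and KO 3 were below all of WT.

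Membrane proteins that block viruses showed a low level in KO 3 beside the level of KO 2. KO 1 was below every WT library for Ifitm2 and Bst2 but within the WT range for Ifitm3. Ifitm3, which hinders the fusion of viral with cell membranes, was at 20, 16.1 and 21.3 CPM in WT and at 16.6, 35.7 and 11.8 CPM in the KO-labelled libraries. Its close relative Ifitm2 was at 14.1, 11.5 and 9.86 CPM in WT and at 7.25, 14.6 and 5.70 CPM in the others. KO 2 was therefore at the top for both, and KO 3 at the bottom. Bst2 (chr8:71534255-71537472), the tetherin that holds budding virus at the cell surface, was at 12.8, 8.34 and 7.08 CPM in WT and at 2.89, 8.18 and 2.76 CPM in the KO-labelled libraries. KO 2 lay within the WT range and was 2.83 times the higher of KO 1 and KO 3. The fold change of Bst2 was -1.03 (SE 0.48, adjusted p 0.591 from edgeR) and -1.73 (SE 0.32, adjusted p 0.494) without KO 2. Its order in WT, highest in WT 1 and lowest in WT 3, was also that of the choroid plexus marker sum. Several other members had this order too, among them Irf9, Irf7 and Xaf1, whose groups overlapped. The part of choroid content in the difference of Bst2 was not tested.

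The Isg15 system tags proteins with the ubiquitin-like Isg15, and its 3 members were all highest in KO 2. Isg15 itself was at 2.33, 2.04 and 2.15 CPM in WT and at 1.89, 4.61 and 1.59 CPM in the KO-labelled libraries. With KO 2 at 2.26 times the median, and KO 1 and KO 3 below all of WT, its fold change of 0.31 turned to -0.32 without KO 2. Usp18, the protease that removes Isg15 and restrains the type I receptor, was at 1.52, 1.02 and 0.812 CPM in WT and 1.83, 2.02 and 0.998 CPM in the others. Trim25, a ubiquitin ligase that acts on Ddx58, was at 11.3, 10.6 and 10.6 CPM in WT and 8.25, 11.5 and 9.16 CPM in the others, so KO 2 exceeded WT 1 by little.

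Interferon-inducible GTPases attack the membranes around intracellular pathogens, and 4 of the 6 were highest in KO 2. Gbp2 was at 5.85, 4.80 and 5.45 CPM in WT and at 5.30, 10.8 and 5.05 CPM in the KO-labelled libraries. Gbp3 was at 4.66, 5.10 and 5.45 CPM in WT and 4.24, 8.47 and 4.46 CPM in the others. The remaining libraries were close together for both genes, with KO 2 at folds of 2.04 and 1.82. Gbp7 went the other way, at 7.36, 6.60 and 6.90 CPM in WT and at 4.36, 5.36 and 5.64 CPM in the KO-labelled libraries, each of which was below all of WT (fold change -0.44, SE 0.17, unadjusted p 0.0385, adjusted p 0.519 from edgeR). The Gbp genes are similar in sequence, and reads shared between them make single values uncertain. In the related immunity GTPases, Igtp was at 7.25, 4.08 and 6.32 CPM in WT and 5.13, 8.29 and 3.29 CPM in the others, and Iigp1 was at 2.81, 1.68 and 1.80 CPM in WT and 2.59, 3.23 and 1.47 CPM in the others. Both were highest in KO 2 and lowest in KO 3. Irgm1, which regulates the other immunity GTPases, was at 11.4, 7.32 and 9.28 CPM in WT and 9.07, 9.79 and 9.63 CPM in the KO-labelled libraries, inside the WT range.

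Of the 8 other induced genes, 4 were highest in KO 2 and Ifi27 was the member with the lowest p between the groups. Ifi27 (chr12:103434189-103440245), a small membrane protein of an interferon-induced family, was at 49.8, 38.7 and 25.0 CPM in WT and at 20.9, 22.2 and 14.2 CPM in the KO-labelled libraries. All 3 KO-labelled libraries were below WT, and KO 2 exceeded KO 1 by a small margin. Its fold change was -0.99 (SE 0.29, unadjusted p 0.0116, adjusted p 0.380 from edgeR), with adjusted p-values down to 0.0576 among the alternatives, so the difference did not pass the threshold in any of them. Its WT values had the same order as the choroid plexus marker sum, as did those of Bst2 and several other members. The part of choroid content was not tested.

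Ifi44 was at 1.35, 0.660 and 1.22 CPM in WT and at 0.530, 2.94 and 0.763 CPM in the KO-labelled libraries, the largest fold of KO 2 among the tested members, 3.85. Cxcl10, a chemokine that attracts T cells, was at 0.595, 0.420 and 0.174 CPM in WT and at 0.648, 1.21 and 0.176 CPM in the others. Its lowest values are at the floor of 3 counts, which is 0.170 to 0.176 CPM in these libraries before TMM scaling. Its fold change between the groups was 0.76 (SE 0.74). Parp14, which attaches ADP-ribose to proteins, was at 5.85, 4.86 and 4.87 CPM in WT and at 3.71, 9.45 and 4.81 CPM in the KO-labelled libraries. Ifi35 was at 4.49, 2.52 and 2.90 CPM in WT and 3.06, 5.01 and 1.88 CPM in the others. In these 4 genes KO 2 was the top library. The chaperone Rtp4 was at 5.85, 3.60 and 4.87 CPM in WT and 3.83, 5.07 and 3.52 CPM in the KO-labelled libraries. Xaf1, which promotes cell death, was at 9.31, 7.38 and 7.14 CPM in WT and 9.60, 6.57 and 4.70 CPM in the others. Trim30a, a member of the tripartite motif family, was at 3.57, 3.96 and 3.89 CPM in WT and 2.30, 3.8 and 3.52 CPM in the others. None of these last 3 was highest in KO 2.

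**Figure D3:**
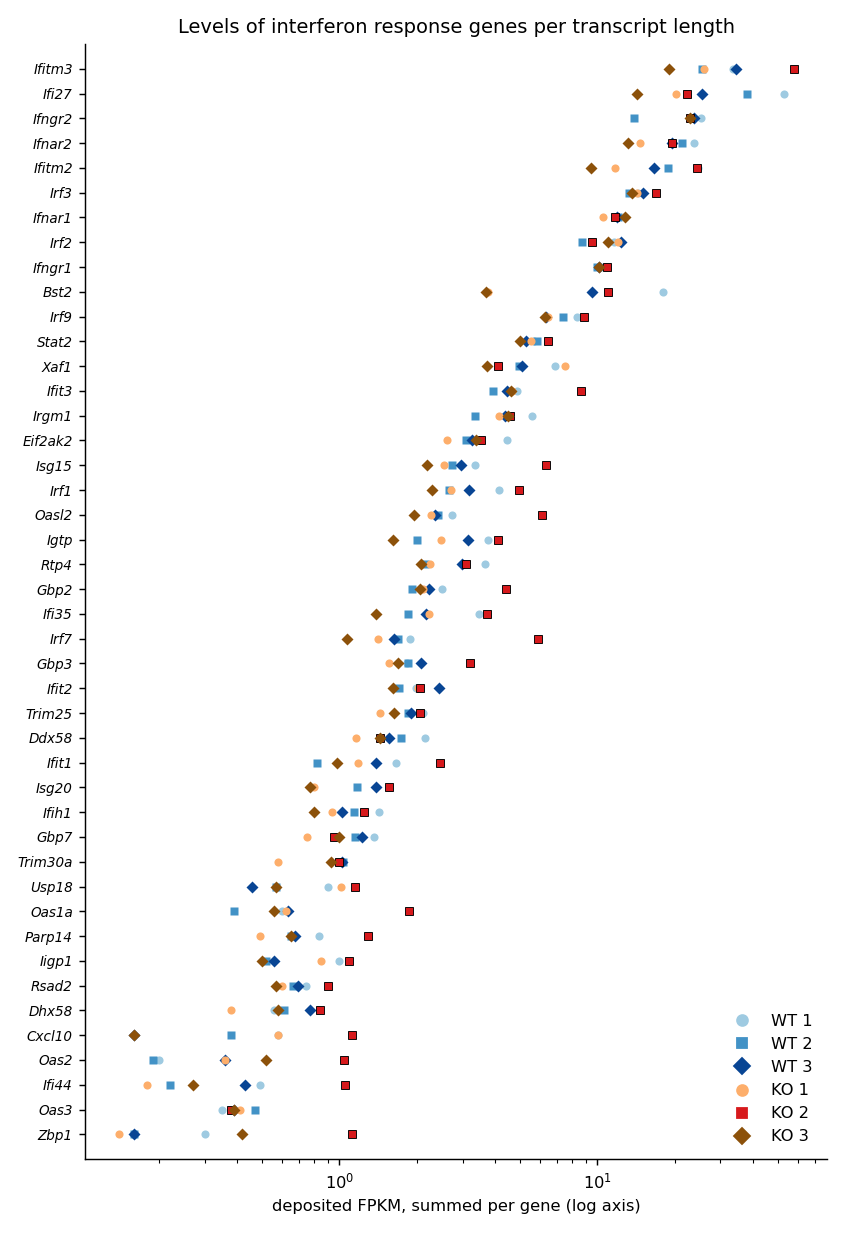
Deposited FPKM, summed per gene and shown on a log axis, in each library for the 44 members with a row, ordered by their mean. Ifitm3 is at the top with a mean of 32.7 FPKM and Zbp1 at the bottom with 0.383 FPKM.

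Levels of different genes can be compared only per transcript length, which FPKM, fragments scaled to transcript length and library size, provides. On that scale Ifitm3 was the highest member by its mean over all libraries (31.1 ± 5.03 FPKM in WT and 34.2 ± 20.6 in the KO-labelled libraries, SD, n = 3 each), followed by Ifi27 (38.8 ± 13.7 and 18.9 ± 4.23) and by the receptor chains Ifngr2 (20.9 ± 6.18 and 22.9 ± 0.0404) and Ifnar2 (21.5 ± 2.15 and 15.7 ± 3.31). In WT, Ifitm3 and Ifi27 did not differ beyond their SDs, nor did Ifngr2 and Ifnar2. Over all 6 libraries the means then went from 17.6 FPKM for Ifitm2 through 14.6 for Irf3, 12 for Ifnar1, 10.8 for Irf2, 10.4 for Ifngr1 and 9.5 for Bst2 down to 0.398 for Oas3 and 0.383 for Zbp1. The inducible genes with the largest folds of KO 2 were at the low end. Irf7 had 1.73 ± 0.127 FPKM in WT, Oas1a 0.540 ± 0.131, Cxcl10 0.373 ± 0.210, Ifi44 0.380 ± 0.142 and Oas2 0.25 ± 0.0954. The SD in the KO-labelled group exceeded the mean of WT for Irf7, at 2.67 FPKM, because KO 2 alone reached 5.86 FPKM. Oasl2 likewise had 2.50 ± 0.212 FPKM in WT and 3.44 ± 2.32 in the KO-labelled group.

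**Figure D4:**
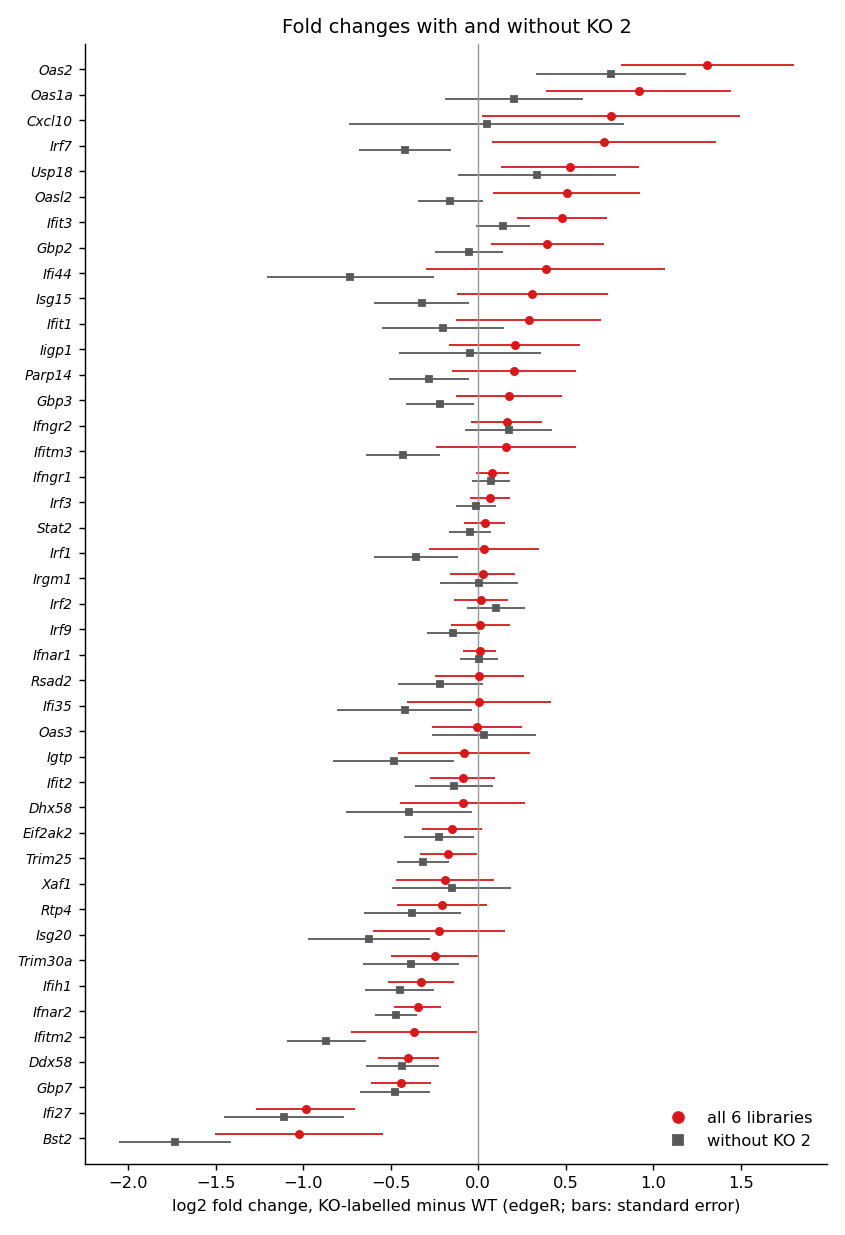
Points are the edgeR log2 fold changes of the 43 tested members, KO-labelled minus WT, with bars for the standard error derived from the F statistic, for all 6 libraries (circles) and without KO 2 (squares). In 39 of the 43 members the square lies to the left of the circle.

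Between the groups, the members as a whole did not move one way with all libraries in the fit. Their median fold change was 0.017 and that of all tested genes was 0.018, with 26 members above 0 and 17 below (46.6% of all tested genes were below). The groups did not overlap for 2 members that were higher (Ifit3 and Oas2, against 8% of all tested genes) and for 5 that were lower (Ifnar2, Ddx58, Ifih1, Gbp7 and Ifi27, against 8.74%). The members' counts were thus close to the shares of all genes. Each of the 7 had an exact two-sided permutation p of 0.1, the smallest possible here.

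The KO-labelled libraries differed among themselves. KO 2 was the highest of the 3 KO-labelled libraries for 34 of the 43 members, against 34.8% of all tested genes. It was at least 1.5-fold above the highest of the other 5 libraries for 13 members, against 1.42% of all tested genes, and its median fold was 1.32 for the members and 1.0 for all tested genes. KO 3, by contrast, was the lowest of the 6 libraries for 19 members, against 12.6% of all genes, and KO 1 for 10, against 13.7%. The highest level was in WT 1 for 10 members (20.4% of all genes), in WT 2 for 2 (21.9%), in WT 3 for 2 (8.3%), in KO 1 for 2 (17.7%) and in KO 3 for 1 (12.2%). Among other genes of similar level, those with a mean CPM between the members' lower and upper quartiles, 19% of 2932 were highest in KO 2.

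Without KO 2, the median fold change of the members was -0.22, while that of all genes tested stayed at 0.020. Of the 43 members, 32 were then below 0, against 45.8% of all genes, and 16 had changed from above to below 0, among them Irf7, Isg15, Oasl2, Ifi44 and Ifitm3. KO 1 and KO 3 were both below all 3 WT libraries for 16 members, against 12.4% of all genes: Ifnar2, Irf7, Ddx58, Ifih1, Oasl2, Rsad2, Isg20, Ifitm2, Bst2, Isg15, Trim25, Gbp3, Gbp7, Ifi27, Trim30a and Parp14. They were both above WT for 2, Ifit3 and Oas2, against 10.7%. At an unadjusted p under 0.05, edgeR had 4 members lower (Ifnar2, Ifitm2, Bst2 and Ifi27, against 5.21% of all genes) and 0 higher (0.87%), and 0 passed the adjusted threshold, with a lowest adjusted p of 0.494 (0% of all 15288 genes passed). The choroid plexus marker sum was at 327 to 524 CPM in the KO-labelled libraries and at 5363 to 22923 CPM in WT, and its part in this lean was not tested.

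**Figure D5:**
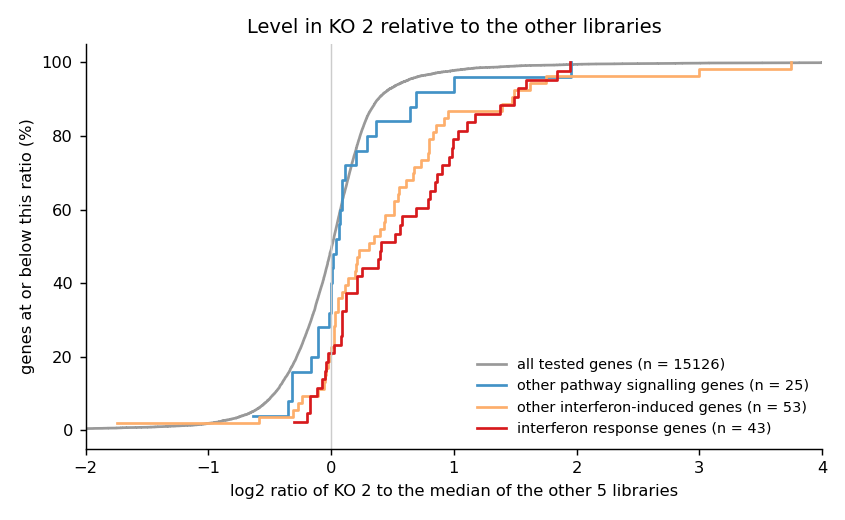
Cumulative curves of the log2 ratio of KO 2 to the median of the other 5 libraries for 43 members, 53 other interferon-induced genes, 25 other signalling genes of the pathway and all 15126 tested genes. The curves of the members and of the other induced genes lie to the right of that of all genes, with median folds of 1.32 and 1.24, while that of the signalling genes stays close to it for most of its course.

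Genes of the pathway outside the members were taken from lists by role. Of 21 interferon genes, 2 had a row, Ifng and Ifnz, at 0 to 1 estimated counts in every library, under the floor of 3 counts, so interferon transcripts were not detectable at this depth where they had a row. Of 25 tested signalling genes, 0 were called by edgeR and 3 were highest in KO 2. Jak1, a kinase of both receptors, was at 155, 159 and 168 CPM in WT and 154, 159 and 161 CPM in the KO-labelled libraries, and Jak2, the kinase of the interferon gamma receptor, was at 46.2, 85.6 and 65.8 CPM and 68.0, 63.1 and 75.3 CPM. Traf3, an adaptor of the sensors, was at 81.3, 50.8 and 75.5 CPM and 63.7, 70.3 and 78.7 CPM. None of these 3 was high in KO 2. The DNA sensor Cgas was at 2.22, 1.14 and 1.33 CPM in WT and 1.35, 2.71 and 1.76 CPM in the others. Ikbke, a kinase that activates Irf3, was at 3.84, 3.0 and 2.03 CPM and 1.47, 3.4 and 2.17 CPM.

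Of 15 negative regulators, 0 were called by edgeR and 3 were highest in KO 2. Adar, which edits double-stranded RNA, was at 236, 212 and 242 CPM in WT and 213, 255 and 258 CPM in the KO-labelled libraries. The deubiquitinases Cyld and Otud4 had KO 2 folds of 1.08 and 0.714. For the phosphatase Ptpn6, the nucleotide-degrading Samhd1 and Nlrc5 the folds were 1.5, 1.20 and 1.20.

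Of 66 other interferon-induced genes, 53 were tested, 0 were called by edgeR and 23 were highest in KO 2, with a median KO 2 fold of 1.24. Oasl1, an Oas relative, was at 0.704, 0.3 and 0.174 CPM in WT and at 0.766, 4.03 and 0.176 CPM in the KO-labelled libraries, and Ifit1bl1, a close relative of Ifit1, was at 2.33, 0.900 and 1.68 CPM and 2.00, 16.0 and 2.06 CPM. Ifi27l2a, a relative of Ifi27, was at 1.30, 0.840 and 0.986 CPM and 0.648, 2.82 and 0.705 CPM. KO 2 was the highest library for each of the 3, by folds of 13.4, 7.97 and 3.36. Oasl1 was at the floor of 3 counts in WT 3 and KO 3, so its fold of 13.4 rests on few reads outside KO 2. Among the abundant genes of this list, Ly6e, a membrane protein that limits viral entry, was at 167, 106 and 145 CPM in WT and 169, 211 and 123 CPM in the others, whereas the KO 2 folds of Znfx1 and Trafd1 were 1.02 and 1.04.

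DESeq2 called 3 of the 93 tested genes of these lists (3.23%, against 2.06% of all tested genes), all lower in the KO-labelled group and named here after their values were seen. The RNA sensor Tlr3 was at 20.9, 18.7 and 20.3 CPM in WT and 12.7, 12 and 15.0 CPM in the others (adjusted p 0.0287 with DESeq2 and 0.215 with edgeR). Tgtp1, an immunity GTPase, was at 13.8, 14.0 and 7.72 CPM and 1.89, 2.30 and 0.470 CPM (adjusted p 4.14e-06 and 0.186), and has a near-identical copy in Tgtp2 that makes its value uncertain. Lgals3bp was at 80.6, 68.5 and 49.6 CPM and 24.1, 42.0 and 26.1 CPM (adjusted p 0.00759 and 0.288). In each of the 3, every KO-labelled library was below every WT library (8.74% of all tested genes were), as the choroid plexus marker sum also was, whose part was not tested.

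Other transcripts set KO 2 apart as well. The 10 genes on none of the lists with the largest fold of KO 2 over the highest other library were Plet1 (41.9), Anxa1 (32.6), Sprr1a (31.4), AI661453 (18.9), Gsto1 (10.7), Upk1b (10.6), Ppl (10), Krt23 (9.14), Anxa8 (8.67) and Emp1 (8.08), of which Sprr1a, Upk1b, Ppl and Krt23 are known from surface epithelia. Plet1 was at 45.3 CPM in KO 2 and at most 1.08 CPM elsewhere, and Gsto1 at 441 and at most 41.4 CPM. Those folds exceed that of any tested member. The summed level of 10 markers of mural cells and fibroblasts was 411 CPM in KO 2 and 208 to 257 CPM in the others. Of these 10, 6 were highest in KO 2, against 19.5% of all tested genes. The smooth muscle gene Acta2 was at 74.5 CPM in KO 2 and at most 29.5 CPM elsewhere. For 18 microglial markers the sum was 947 CPM in KO 2 and 643 to 881 CPM in the others, and 10 were highest in KO 2. For 12 endothelial markers the sums were 315 CPM and 261 to 342 CPM, and 6 were highest in KO 2. Of 10 markers of perivascular and infiltrating myeloid cells, 9 had a row and 7 were highest in KO 2. They summed to 24.8 CPM in KO 2 and 6.39 to 11.6 CPM elsewhere, of which Plac8 made up 8.01 CPM in KO 2 and at most 0.180 CPM elsewhere. Of 14 lymphocyte markers, 13 had a row and 4 were highest in KO 2; they summed to 65.5 CPM in KO 2, 44.9 and 51.1 CPM in KO 1 and KO 3 and 4.98 to 103 CPM in WT. Most of that sum in KO 2 was Cd4, at 61.1 CPM there and 1.41 to 99.6 CPM elsewhere, while the T cell genes Cd3e, Cd3d and Cd3g were at or below 0.346 CPM in every library. The part of any of these in the KO 2 values of the members was not tested.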

How the data were processed

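Bulk SVZ RNA was measured in 3 WT and 3 KO-labelled libraries, grouped and numbered by their titles. The deposited table holds estimated counts and FPKM for 61481 RefSeq transcripts, per the file headers. The values show that FPKM is the count divided by a length for each transcript and by the size of each library. Per the submitters' processing notes, mm10 and limma 3.40.6 were used; how reads were aligned and counted is not given in the sources used here, nor whether strand was read, so overlapping and antisense genes cannot be told apart.

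Estimated counts were added up over the transcripts of each NCBI gene number, giving 18614 genes, and were rounded. Symbols and coordinates came from RefSeq for GRCm38.p6, the mm10 sequence, which named 18489; the other 125, with 0.104% to 0.140% of all counts, could be matched to no list and were kept. The 6 libraries held similar totals, and 3 counts, the floor, were 0.170 to 0.176 CPM before TMM scaling, which covers counting error only. Library pairs within a group differed beyond sampling noise (chi-square per degree of freedom 22.6 to 99.5). Genes kept by filterByExpr (minimum count 10) entered a test in edgeR 4.0.16 under R 4.3.3 (TMM, robust quasi-likelihood F test, group only, two-sided), with Benjamini-Hochberg adjustment over all 15126 genes and a threshold of 0.05. Alternatives used DESeq2 1.42.0, limma 3.58.1 with voom, other scalings and filters, the replicate number as a block, FPKM, and each library left out; the test was checked on simulated data. All 46 members are named. From each list of other pathway genes the 3 highest in mean CPM and the 3 with the largest KO 2 fold (mean of at least 1 CPM) are named, and outside the lists the 10 with the largest fold of KO 2 over the highest other library, without predicted loci; 1 gene that this rule names is not reported here. Members and lists were chosen with earlier results of these data known.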

Additional observations from a re-analysis of the deposited data

How the results depend on the processing

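No member passed the threshold in any of the 13 alternatives with a test, where the lowest adjusted p was 0.0576. DESeq2 called 311 genes in all, and leaving out 1 library gave 0 to 137 (137 without WT 3). The members without overlap, 7 of 43 against 16.7% of all tested genes, were 4 under upper quartile scaling (16% of all genes) and 4 in FPKM (16.2%). They were 7 to 18 with 1 library left out, which makes overlap rarer for all genes. There were 18 without KO 2, against 23.1% of all genes, and 11 without KO 3, against 31.2%. Without WT 1, WT 2, WT 3 or KO 1 there were 8, 7, 8 and 8, against 25.6%, 30.7%, 26.3% and 25.7% of all genes. Members highest in KO 2 numbered 13 of the 26 with a mean of at least 5 CPM. The median KO 2 fold of those 26 was 1.13, against 1.32 for all 43 tested members. Counts over the 3 KO-labelled libraries alone (34) and with Zbp1 (27) were added after seeing the data. The median fold change was -0.22 to 0.12 with 1 library left out. Same-numbered libraries did not deviate together (correlations -0.162, -0.0674 and -0.0368). Those with different numbers had correlations from -0.149 to 0.182, so these values cannot decide whether the numbers pair the samples. With the replicate block 0 genes and 0 members were called.

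Of 542 values, 53 changed sign, in 26 members, 17 of them without KO 2. With DESeq2 size factors and the DESeq2 test respectively these were Ifnar1 (-0.0015, -0.0015), Rsad2 (-0.0028, -0.0027) and Ifi35 (-0.0052, -0.0050); with voom and the replicate block, Irf1 (-0.031, -0.029), Oas3 (0.011, 0.0034), Rsad2 (-0.021, -0.020) and Ifi35 (-0.069, -0.062). With 1 library left out the fold changes of those members ranged as follows: Dhx58 -0.40 to 0.14, Eif2ak2 -0.24 to 0.00080, Gbp2 -0.052 to 0.59, Gbp3 -0.22 to 0.35, Ifi35 -0.42 to 0.29, Ifi44 -0.73 to 0.77, Ifit1 -0.20 to 0.53, Ifit2 -0.19 to 0.058, Ifitm3 -0.43 to 0.45, Ifnar1 -0.046 to 0.063, Ifngr2 -0.059 to 0.29, Igtp -0.48 to 0.19, Iigp1 -0.049 to 0.48, Irf1 -0.35 to 0.24, Irf2 -0.11 to 0.13, Irf3 -0.012 to 0.13, Irf7 -0.42 to 1.11, Irf9 -0.14 to 0.11, Irgm1 -0.13 to 0.19, Isg15 -0.32 to 0.58, Oas3 -0.13 to 0.13, Oasl2 -0.16 to 0.75, Parp14 -0.28 to 0.46, Rsad2 -0.22 to 0.13, Stat2 -0.046 to 0.11, Xaf1 -0.50 to 0.024. The cause was not tested. Depth limits the members near the floor, such as Zbp1, Cxcl10 and Ifi44.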
